A study of Mus musculus with 3 samples.

Results

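Heart cells of mice labelled Myh6-R404Q were compared with heart cells of wild-type (WT) mice by single-cell RNA sequencing, with 1 library on each side. The Myh6-R404Q cells are the barcodes that end in -3 in the matrix filed under that genotype, and the WT cells are all barcodes of the WT matrix. This gave 12662 Myh6-R404Q and 18033 WT barcodes, 30695 of the 38646 barcodes of the series, whose other library carries the Prkag2-p.R299Q mutation. The Myh6 matrix is an aggregate: its barcodes ending in -1 held the same counts as the Prkag2-p.R299Q library and those ending in -2 the same as the WT library, with 0 differing entries, so the assignment of -3 to Myh6-R404Q rests on elimination and on the label of the matrix. Both groups were male C57/B6J mice, and total heart cells were obtained by collagenase digestion and a strainer. The labels name the point mutation without saying whether it is heterozygous or homozygous, and give no age, no treatment and no number of pooled hearts.

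Myh6 codes for alpha-myosin, the fast motor of adult mouse heart muscle, and Myh7 for the slower beta form. Substitutions in sarcomere motor genes are a known cause of hypertrophic cardiomyopathy, in which heart muscle thickens and stiffens and connective tissue accumulates. The adult heart holds cardiomyocytes that burn mostly fatty acids, fibroblasts that make matrix, a mesothelial sheet over the epicardium, the endocardial lining of the chambers, blood and lymphatic endothelium, pericytes and resident macrophages. In the mm10 reference, the codon that R404Q names lies in exon 13 of transcript Myh6-201, at chr14:54960468-54960470 on the minus strand, and reads CGG, an arginine codon. It is shown in capitals within its exon, as the reference position of the residue that the genotype names.

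Myh6 codon of R404Q: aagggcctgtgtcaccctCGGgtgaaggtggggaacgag

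The 3′ tag counts do not read this codon, and the level of Myh6 is no check of the genotype. In cardiomyocytes Myh6 stood at 12920 CPM (counts per 1000000 UMIs of the class) in the WT library and 12480 CPM in the Myh6-R404Q library, a ratio of 0.966. The sex label could be checked: over all cells Xist stood at 1.92 CPM in WT and 0.925 CPM in Myh6-R404Q, while Uty stood at 262 and 263 CPM.

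After filters and doublet removal 14831 WT cells and 10530 Myh6-R404Q cells remained, with medians of 1413 and 1850.5 unique molecular identifiers (UMIs, counted molecules) per cell. The 2 libraries shared 51 barcodes, 0.403% of those of Myh6-R404Q. Clusters were named by marker genes, and each class is meant as marker-defined, such as cardiomyocyte-like, with the bare name used for short. In 8 classes with at least 200 cells in each library, no more than 1 of the class's own markers was without a UMI. UMIs were summed per class and library, and a ratio is the Myh6-R404Q CPM over the WT CPM. The range in parentheses after a ratio is its 95% interval, exact for ratios of CPM and log-normal for ratios of shares, which covers counting error only. With 1 library on each side there was no test, and differences between mice, preparations and libraries cannot be told apart from the genotype.

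Markers of the other classes were counted in every class of both libraries. The 4 hemoglobin mRNAs summed to between 24.6 and 91.1 CPM across the 8 classes in WT and between 111 and 365 CPM in Myh6-R404Q, and their median log2 ratio lay between 1.84 and 2.14 in every class. Mesothelial surface genes such as Msln, Rarres2 and Upk3b were also higher in all or all but 1 of the classes. Msln codes for mesothelin, and its log2 ratio was 1.86 in macrophages against 0.55 in mesothelial cells. Genes were therefore named for a class only where their CPM reached 0.2 of that in the class with the highest level.

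Among the 8 large classes, the ratio of shares was furthest from 1 in mesothelial, endocardial and lymphatic cells. Mesothelial cells were 795 of the WT cells, 5.36% (5.0 to 5.74), and 1361 of the Myh6-R404Q cells, 12.9% (12.3 to 13.6), a ratio of 2.41 (2.22 to 2.62). Endocardial cells were 3.58% in WT and 6.34% in Myh6-R404Q, 1.77 times the WT share (1.59 to 1.98). Lymphatic endothelial cells were 5.74% in WT and 3.61% in Myh6-R404Q, a ratio of 0.629 (0.559 to 0.708). Among small classes, smooth muscle cells were 200 in WT and 49 in Myh6-R404Q, a ratio of 0.345 (0.253 to 0.471), and Schwann cells were 90 and 18, a ratio of 0.282.

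Fibroblasts were the largest class in both libraries, with 29.1% of WT and 27.4% of Myh6-R404Q cells. Cardiomyocytes made up 14.2% and 12.6%, endothelial cells 22.8% and 20.4%, macrophages 10.4% and 8.85% and pericytes 4.75% and 4.12%. Their ratios lay between 0.851 and 0.938, and a share is relative, so a larger mesothelial share lowers the others. The endothelial difference depended on depth: among barcodes with at least 1000 UMIs the shares were 16.57% in WT and 16.59% in Myh6-R404Q. In the same barcodes cardiomyocytes were 17.0% and 13.2%. Shares also follow digestion and straining, which were not measured here.

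**Figure D1:**
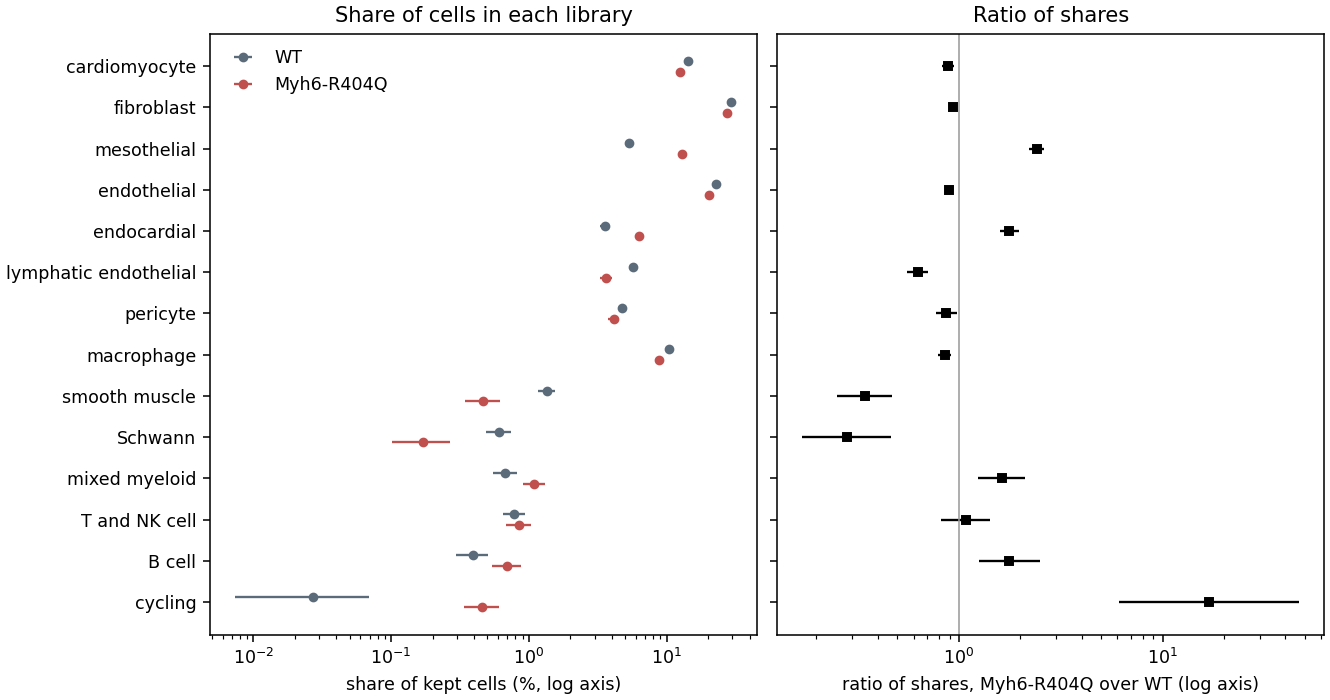
Share of kept cells in each marker-defined class (left, percent on a log axis, exact 95% binomial intervals) and the ratio of the shares of Myh6-R404Q over WT (right, log axis, 95% intervals of counting error), with 1 library per genotype. Mesothelial (2.41), endocardial (1.77) and cycling cells lie to the right of 1, and lymphatic (0.629), smooth muscle (0.345) and Schwann cells (0.282) to the left.

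A small cycling cluster, led by Top2a, Knl1 and Mki67, held 4 WT and 48 Myh6-R404Q cells. Among the nearest neighbours of each of the 48, the most frequent class was endothelial for 23, macrophage for 23 and fibroblast for 2. Top2a, the topoisomerase of dividing cells, had 32 UMIs over all WT cells and 348 over all Myh6-R404Q cells, a ratio of CPM of 11.8 (8.21 to 17.5). Hmmr, a spindle protein, was at 12.2 times (5.94 to 29.2) and Mki67, the Ki-67 antigen, at 4.39 times (3.21 to 6.08). Ccnb1, the mitotic cyclin B1, had 18 and 17 UMIs, a ratio of 1.03 (0.497 to 2.11). Cells with a UMI of at least 3 of the 10 cycling markers were 4 in WT, 0.0270%, and 67 in Myh6-R404Q, 0.636%. Cycling cells were deep, with a median of 3232.5 UMIs in Myh6-R404Q. With each cell thinned to 1000 UMIs and shallower cells left out, such cells were 2 of 10848, 0.0184%, and 44 of 9035, 0.487% (0.354 to 0.653).

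Gene lists were described by the median log2 ratio of the members that reached 10 CPM in WT or in Myh6-R404Q, and by how many of them were at least 1.5 times higher or lower. The lists separated lineages. Fatty acid oxidation had its highest median in cardiomyocytes, collagens and interferon response genes in mesothelial cells, basement membrane genes in fibroblasts and MHC class II genes in macrophages. Heat shock genes were below 0 in all 8 classes.

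**Figure D2:**
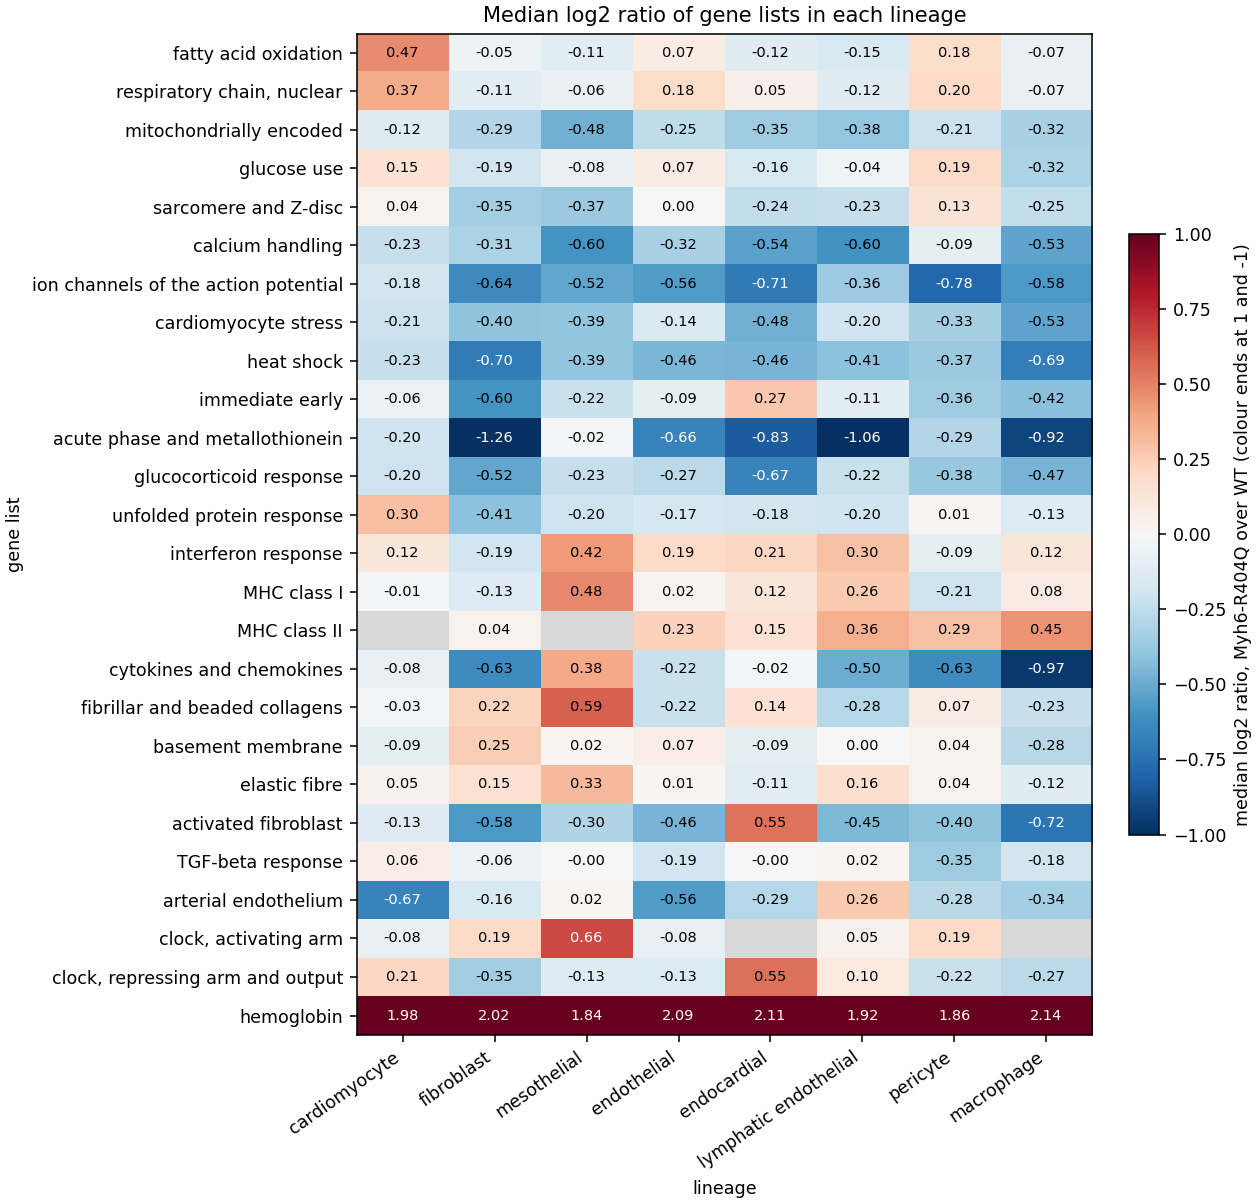
Median log2 ratio (Myh6-R404Q over WT) of 26 gene lists (rows) in 8 lineages (columns), with the value printed in each cell and grey where fewer than 3 members were measured. The hemoglobin row lies between 1.84 and 2.14 throughout, the heat shock row is below 0 throughout, and fatty acid oxidation reads 0.47 in cardiomyocytes.

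Cardiomyocytes carried higher levels of mRNAs for burning fatty acids in the Myh6-R404Q library. Of 26 measured genes of this list, 11 were at least 1.5 times higher and 0 were as much lower, with a median log2 ratio of 0.47. Over all 9169 genes measured in cardiomyocytes, 9.96% were that much higher and 3.06% that much lower, with a median of 0.096. Acadm, the medium-chain acyl-CoA dehydrogenase, stood at 167 CPM in WT and 293 CPM in Myh6-R404Q, 1.76 times (1.64 to 1.88). Hadhb, a subunit of the mitochondrial trifunctional protein, went from 220 CPM in WT to 364 CPM, 1.65 times (1.56 to 1.75). Fabp3, the fatty acid carrier of muscle, was at 413 and 676 CPM, 1.64 times (1.57 to 1.71). Ucp3, a mitochondrial carrier of the uncoupling protein family, was at 21.9 and 68.6 CPM, 3.13 times (2.65 to 3.71).

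The steps of the pathway were not alike. Cpt1a and Cpt2, which move fatty acids into mitochondria, were 1.65 and 1.57 times higher, while Cd36, which brings them into the cell, stood at 1250 and 1552 CPM, 1.24 times. Ppara, the nuclear receptor that drives these genes, stood at 541 CPM in WT and 467 CPM in Myh6-R404Q, a ratio of 0.864 (0.827 to 0.902).

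Nuclear genes of the respiratory chain had a median log2 ratio of 0.37 over 32 measured members. Only Ndufb9 (1.65 times) and Cox5a (1.5 times), subunits of complex I and complex IV, reached 1.5-fold, and 0 members were that much lower. Atp5a1 of the ATP synthase stood at 368 CPM in WT and 513 CPM in Myh6-R404Q. The 13 mitochondrially encoded genes had a median of -0.12 in cardiomyocytes, with mt-Co1 at 1718 and 1689 CPM. With cells thinned to 1000 UMIs that median was 0.05. Of 21 glucose genes 2 were 1.5 times higher, near the 9.96% of all genes measured in cardiomyocytes. Of these 2, Pdk4, the kinase that shuts pyruvate dehydrogenase, was at 37.5 and 103 CPM, 2.76 times (2.43 to 3.15). The glycolytic Gapdh was at 74.5 and 139 CPM, 1.87 times. Txnip, which restrains glucose uptake, stood at 83.6 CPM in WT and 325 CPM in Myh6-R404Q, 3.89 times (3.58 to 4.22).

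The sarcomere list had a median of 0.04 over 26 measured members, 5 of them at least 1.5 times higher and 2 as much lower. Myl2, the ventricular regulatory light chain, stood at 1109 and 1894 CPM, 1.71 times (1.67 to 1.75). Myl3, the essential light chain, was 1.58 times higher, Tcap (telethonin of the Z-disc) 1.95 times, Lmod2 of the thin filament 1.63 times, and Myom2 of the M-band 3.01 times (2.82 to 3.21). Ttn, the giant spring protein, stood at 24440 and 20170 CPM, a ratio of 0.825, and Pdlim5 of the Z-disc at 3657 and 2426 CPM, 0.663. Acta1, skeletal actin, was at 64.8 and 40.9 CPM, 0.630 (0.547 to 0.725). Myh6 itself was 0.966 of WT in the sum over cells, and 13297 CPM in WT against 15101 CPM in Myh6-R404Q as a mean over cells.

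Calcium handling genes leaned the other way, with a median of -0.23 over 18 members, 4 at least 1.5 times lower and 1 as much higher. Casq2, the calcium buffer calsequestrin of the sarcoplasmic reticulum, stood at 393 CPM in WT and 216 CPM in Myh6-R404Q, 0.549 (0.517 to 0.582). Slc8a1, the sodium-calcium exchanger, was at 10860 and 5975 CPM, 0.550, and Ryr2, the calcium release channel, at 14460 and 8775 CPM, 0.607 (0.601 to 0.613). Srl, the luminal protein sarcalumenin, was at 0.628. Atp2a2, the calcium pump SERCA2, stood at 4892 and 5006 CPM, 1.02, and was just under 1 when doublets were kept. The member that was higher is S100a1, a small calcium sensor, at 79.5 and 133 CPM.

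Among 16 ion channel genes of the action potential, 3 were at least 1.5 times lower and 1 higher. Kcnj3, a subunit of the acetylcholine-gated potassium channel, was at 1118 and 709 CPM, 0.634, and Kcnj12, an inward rectifier potassium channel, at 32.0 and 19.1 CPM, 0.595 (0.484 to 0.729). Kcnd2, a subunit of the transient outward current, went the other way, with 3389 and 4118 CPM. Of 16 intercalated disc genes 2 were 1.5 times higher and 0 lower, near the share of all genes measured in cardiomyocytes (9.96% and 3.06%). The 2 were Dsp (desmoplakin) at 1.53 and Dsc2 (desmocollin) at 1.51.

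Genes usually read as markers of a stressed cardiomyocyte were not higher as a group. Of 15 measured members 0 were at least 1.5 times higher and 3 were as much lower, and the median was -0.21. Myh7 stood at 1407 CPM in WT and 1304 CPM in Myh6-R404Q, 0.927 (0.903 to 0.952). The reads of Myh7 and of the antisense RNA Mhrt, which overlap over 3666 bases, could not be told apart unless strand was used in counting. Ankrd1, a titin-bound stress protein, was at 1.10. Rcan1, a target of calcineurin signalling, was at 0.617 (0.534 to 0.712), and Uck2, a uridine kinase, at 0.602. Xirp2 was at 0.785 in the sum and above 1 with cells weighted alike.

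**Figure D3:**
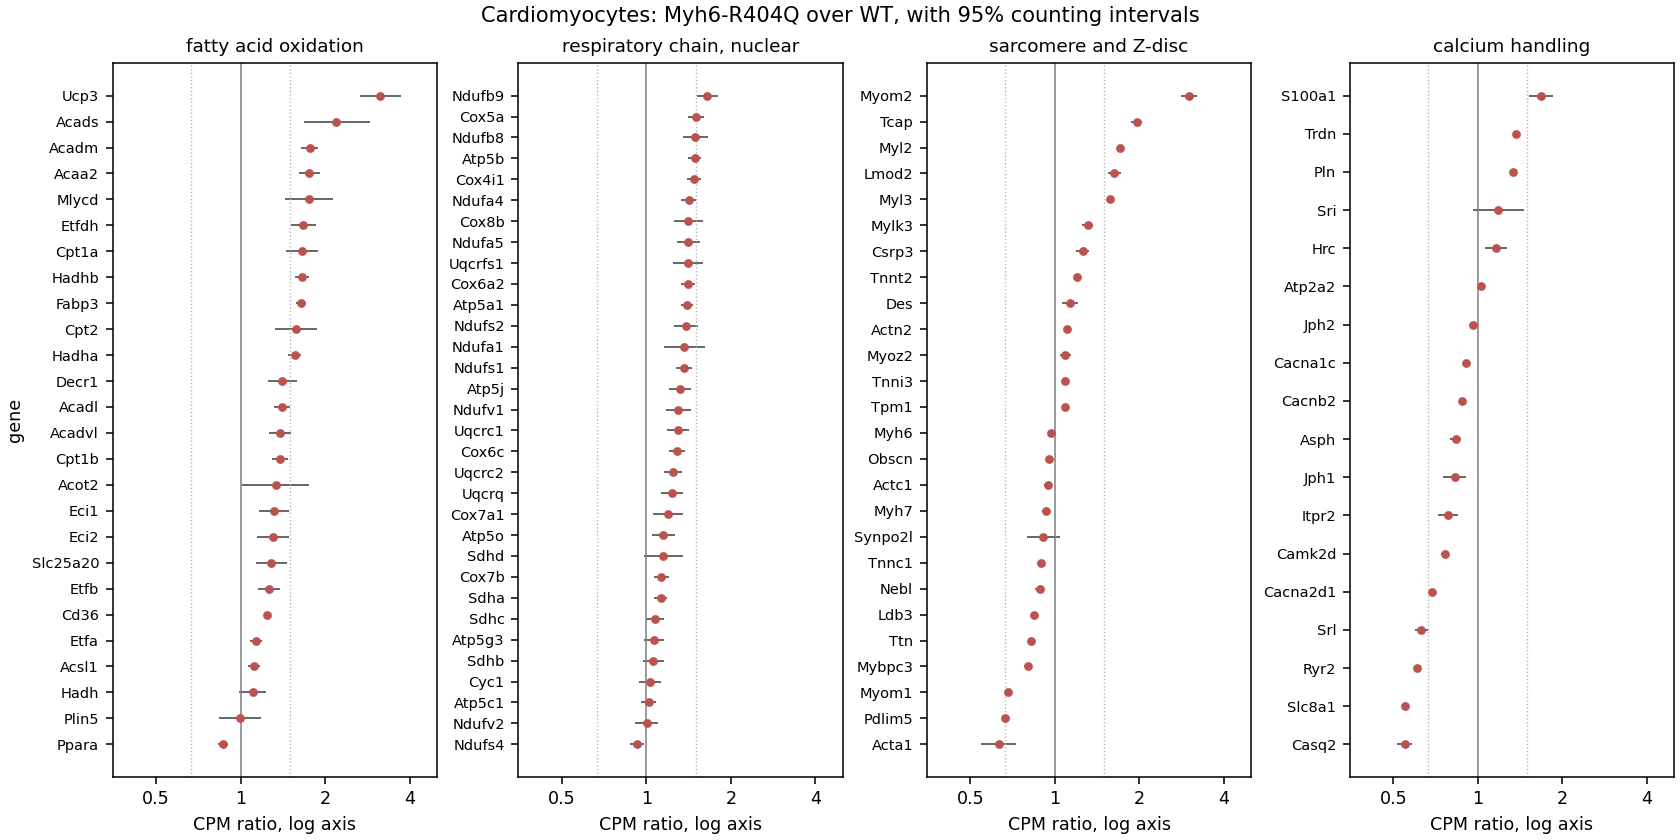
Ratio of CPM in cardiomyocytes, Myh6-R404Q over WT (log axis), for each measured member of 4 gene lists, with exact 95% counting intervals and dotted lines at 1.5-fold in each direction. Fatty acid oxidation members sit to the right of 1 other than Plin5 (0.992) and Ppara (0.864), and Casq2 (0.549), Slc8a1 (0.550) and Ryr2 (0.607) are the lowest calcium handling members.

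The ratio of a cardiomyocyte gene moved with its length. Genes spanning under 5 kb had a median log2 ratio of 0.27 (637 genes), and genes spanning over 100 kb one of 0.02 (1688 genes). Respiratory chain genes are short, with a median span of 7.33 kb, and calcium handling genes long, with 177 kb. Set against the median of genes of similar span, the medians were 0.36 for fatty acid oxidation, 0.22 for the respiratory chain and -0.25 for calcium handling. Genes over 100 kb gave 45.5% of cardiomyocyte UMIs in WT and 42.8% in Myh6-R404Q.

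Cardiomyocytes came in a deep and a shallow cluster. The deep cluster held 81.6% of the class in WT and 81.4% in Myh6-R404Q, with medians of 4302 and 5908.5 UMIs, and the shallow one had 822 and 927.5. In the deep cluster alone 11 of 26 fatty acid oxidation genes were 1.5 times higher, with a median of 0.36, and 4 of 18 calcium handling genes were lower, with a median of -0.22. The stress list had 6 of 15 members lower there and the heat shock list 7 of 18. In the shallow cluster 5 of 16 stress genes were higher and 2 lower, and heat shock genes were split, 6 of 20 higher and 5 lower. Of 32 respiratory chain genes 0 were 1.5 times higher in the deep cluster, where 10.15% of all genes were. Their median there was 0.25, and that of all genes 0.10. In the shallow cluster 20 of 26 fatty acid oxidation genes and 28 of 32 respiratory chain genes were 1.5 times higher. In that cluster 22.7% of all genes were that much higher and 32.9% lower, and Myh6 stood at 15310 CPM in WT and 38810 CPM in Myh6-R404Q.

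Genes with the largest cardiomyocyte ratios included several expressed at low levels in WT. Pak7, a p21-activated kinase, stood at 7.78 CPM in WT and 60.3 CPM in Myh6-R404Q, 7.75 times (6.01 to 10.1), and at 62.8 CPM in the deep cluster of Myh6-R404Q against 3.21 CPM in the shallow one. Scin, an actin-severing protein, was 5.69 times higher (4.50 to 7.26), Rp1 5.61 times, Erc2, a scaffold of presynaptic zones, 4.37 times and Lrp1b, a large lipoprotein receptor, 3.52 times. At the low end, Kctd8 stood at 85.8 and 24.9 CPM, 0.290 (0.246 to 0.340; 99.5 and 16.0 CPM with cells thinned to 1000 UMIs), and Kazn at 80.6 and 27.0 CPM, 0.335. Phka1, a subunit of the kinase that activates glycogen phosphorylase, was at 337 and 157 CPM, 0.466, and Noct, a rhythmically expressed phosphatase, at 118 and 57.7 CPM, 0.487. Of all genes with at least 50 CPM in cardiomyocytes, 1.58% were at least 2 times higher and 0.253% as much lower.

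Some differences ran through every lineage. Of 9298 genes measured in at least 6 of the 8 classes, 22 were at least 1.5 times higher in all or all but 1 of the classes in which they were measured, and 51 were lower. The classes share 2 libraries and their free RNA, so they are not separate observations of the genotype. Among the 22 were the 4 hemoglobin genes and mesothelial genes such as Rarres2, Msln, Igfbp6, Upk3b, C3 and Lrrn4, each of which reached 0.2 of its top level in mesothelial cells alone.

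Ubb, a polyubiquitin gene, was higher in 8 of 8 classes and reached 0.2 of its top level in all of them. It stood at 51.0 CPM in WT and 113 CPM in Myh6-R404Q cardiomyocytes, and at 148 and 354 CPM in mesothelial cells, with log2 ratios between 0.68 and 1.26. Cmss1, a ribosome biogenesis factor, was higher in 7 of 8 classes. Fabp5, a fatty acid carrier of endothelium and macrophages, was also higher in 7 of 8, and Tmsb10, which binds actin monomers, in 6 of 7. Txnip was above WT in each of the 8 classes, by 1.32 times in pericytes to 3.89 times in cardiomyocytes.

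The median of the heat shock list was below 0 in each of the 8 lineages. Hsph1, a large chaperone of the HSP110 family, was at least 1.5 times lower in 8 of 8 classes. It stood at 44.0 and 16.0 CPM in cardiomyocytes, 0.363 (0.294 to 0.447), and at 99.7 and 21.5 CPM in macrophages, 0.216 (0.146 to 0.309). The ratio nearest to 1 was that of lymphatic cells, 0.557. The list's median log2 ratio ran from -0.23 in cardiomyocytes, with 6 of 18 measured members at least 1.5 times lower and 0 higher, to -0.70 in fibroblasts, with 12 of 19 lower and 0 higher. Over all genes, 4.98% of those measured in fibroblasts were that much lower and 4.49% higher. Hsp90aa1, the stress-induced HSP90, Stip1, its co-chaperone, and Chordc1 were lower in 7 of 8 classes each. Serpinh1, the collagen chaperone HSP47, was lower in 8 of 8.

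Heat shock promoters carry sites for the factor HSF1, whose units read GAA and its reverse TTC. The 8 letters GAANNTTC, which read alike on both strands, were searched in the 250 bases before each RefSeq start (GRCm38.p6). They occurred for 7 of 16 list genes with an entry and for 7.73% of 27025 genes. The list was chosen as heat shock genes, so this share does not bear on the difference between the libraries. Whether HSF1 has a part in the lower values was not tested. Stretches of 4 list members with a match are shown 5′ to 3′ on the gene's strand, with matches in capitals. They lie at chr4:40722332-40722363 (plus), chr17:34972241-34972272 (minus), chr5:135887790-135887841 (plus) and chr1:55088052-55088083 (plus).
Dnaja1: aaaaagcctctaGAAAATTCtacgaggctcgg
Hspa1a: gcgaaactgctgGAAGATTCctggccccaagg
Hspb1: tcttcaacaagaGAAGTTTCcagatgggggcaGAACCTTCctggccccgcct
Hspe1: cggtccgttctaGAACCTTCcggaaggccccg

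Dnaja1, an HSP40 co-chaperone, was at 86.2 and 49.3 CPM in cardiomyocytes, 0.573, and at 186 and 98.5 CPM in fibroblasts, 0.529. Hspa1a, the inducible HSP70, stood at 13.4 and 2.86 CPM in endothelial cells, 0.213 (0.0924 to 0.435). Its near-identical neighbour Hspa1b has the same 32 bases upstream, and reads of the pair may be split between them. Hspe1, the mitochondrial co-chaperonin that shares this stretch with Hspd1, was at 0.608 in fibroblasts. Hsph1, Stip1 and Chordc1 had no such match in their windows.

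Acute phase and metallothionein genes were lower for 7 of 10 measured members and higher for 0 in fibroblasts, with a median of -1.26, where that of all genes was 0.015. Mesothelial cells had 3 of 11 members lower and 3 higher (6.44% and 9.41% of all genes), with a median of -0.02, and C3 stood at 1197 and 2586 CPM there. Pericytes had 2 of 9 lower and 2 higher (10.3% and 12.4%), and cardiomyocytes 2 of 6 lower and 1 higher. Serpina3n, a secreted protease inhibitor induced by inflammation and glucocorticoids, was at least 1.5 times lower in 8 of 8 classes. It reached 0.2 of its top level in 4 of them, and the part of free RNA was not tested. It stood at 124 CPM in WT and 7.29 CPM in Myh6-R404Q lymphatic cells, 0.0586 (0.0187 to 0.140), and at 61.6 and 11.2 CPM in fibroblasts, 0.182. Lrg1, a secreted glycoprotein of inflamed vessels, was lower in 7 of 7 classes, and Socs3, the feedback inhibitor of the interleukin-6 receptor, in 6 of 6. Lrg1 reached 0.2 of its top level in 4 classes and Socs3 in 6. Mt1 and Mt2, the metallothioneins, were at 0.402 and 0.198 in fibroblasts and 0.473 and 0.426 in endothelial cells. Acta1 was lower in 8 of 8 classes and Cdkn1a, the cell cycle inhibitor p21, in 6 of 7, with 55.2 and 17.8 CPM in endothelial cells, 0.322 (0.236 to 0.434).

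Muscle genes such as Ryr2, Kcnj3 and Chrm2 were also among the 51. Each of these reached 0.2 of its top level in 1 class alone. The 12 cardiomyocyte markers summed to 9354 CPM in WT and 6289 CPM in Myh6-R404Q mesothelial cells, with 0 of 12 higher, but to 17170 and 21530 CPM in pericytes, with 10 of 12 higher. C7 and F13a1, made by fibroblasts and macrophages, were lower in 6 of 7 and 8 of 8 classes, although each reached 0.2 of its top level in 1 class alone. The part of free RNA in these values was not tested.

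**Figure D4:**
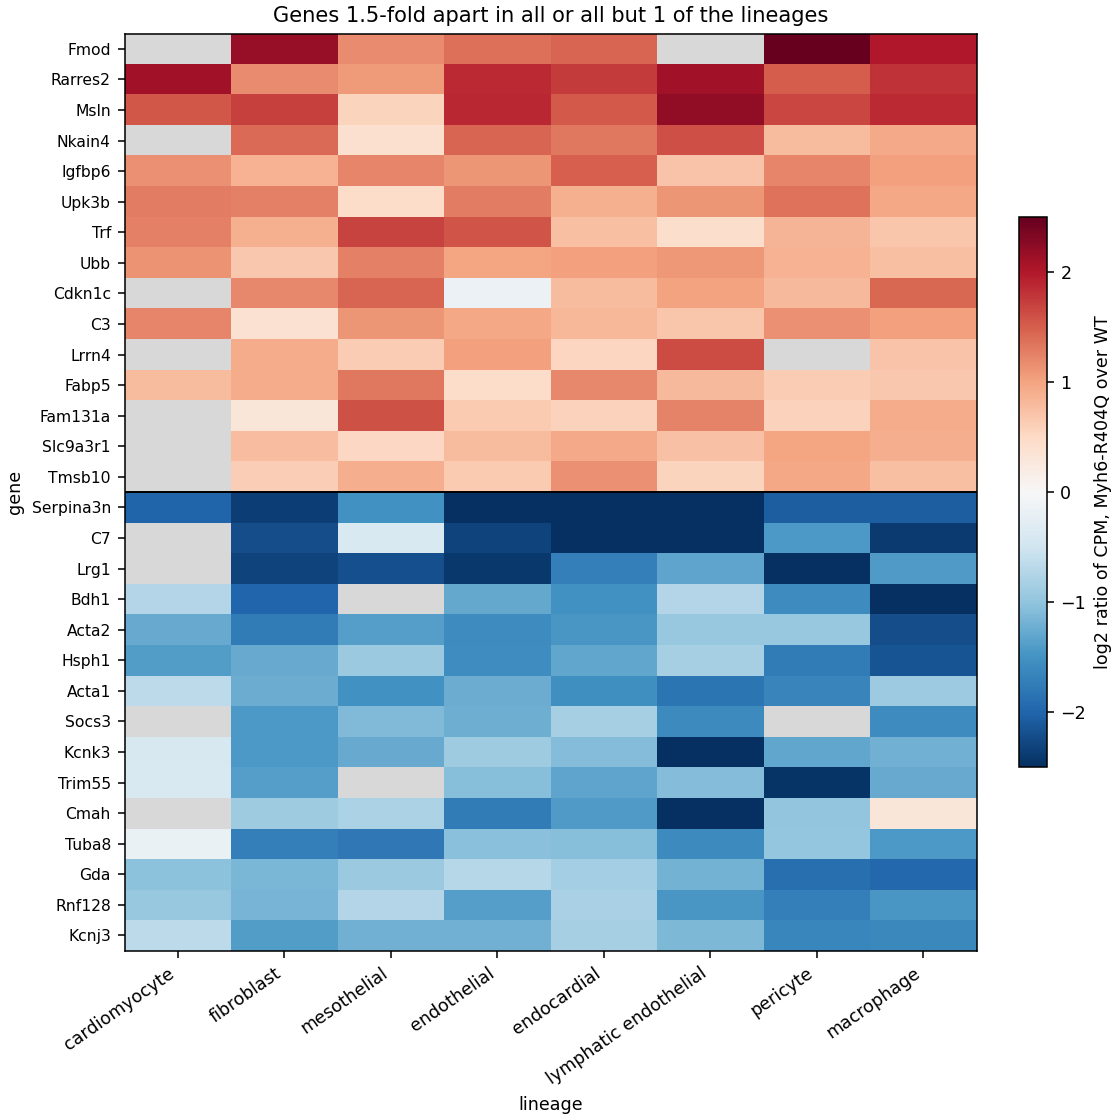
Log2 ratio of CPM (Myh6-R404Q over WT) in 8 lineages for the 15 highest and 15 lowest genes by mean among those at least 1.5-fold apart in all or all but 1 of the lineages, hemoglobin and predicted genes left out. Colours end at 2.5 and -2.5, grey marks classes with under 10 CPM in both libraries, and Serpina3n and Hsph1 are blue in all 8 columns.

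**Figure D5:**
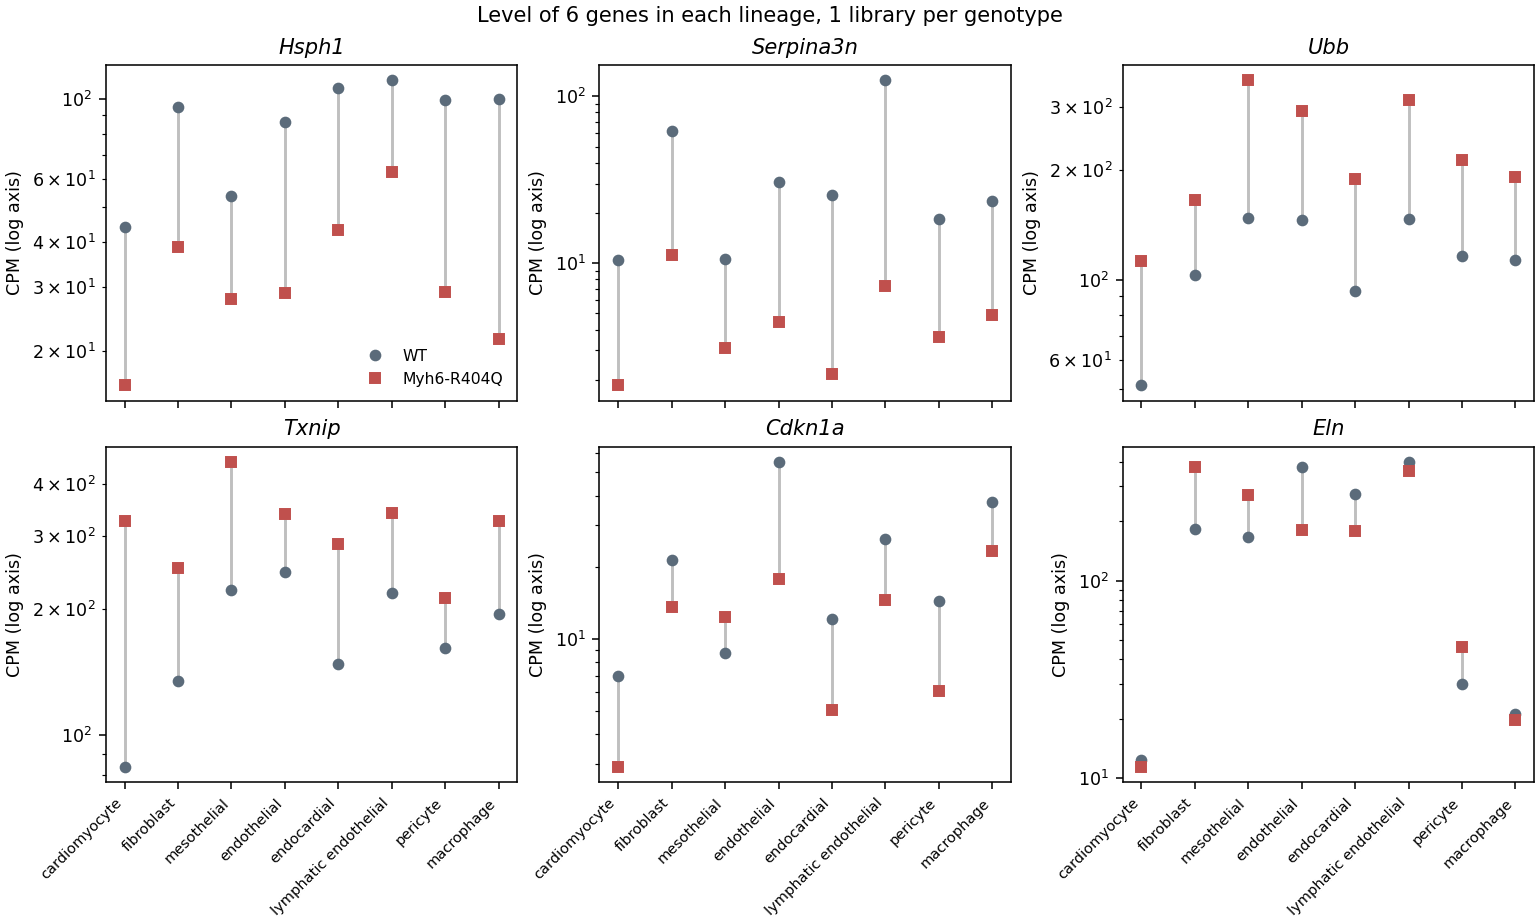
CPM (log axis) of 6 genes in 8 lineages, with WT as circles and Myh6-R404Q as squares, 1 library each. Hsph1 and Serpina3n are lower and Ubb and Txnip higher in Myh6-R404Q in every lineage, while Eln is higher in fibroblasts (2.07 times) and lower in endothelial cells (0.475 times).

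Mesothelial cells, the largest gain in share, had higher collagen and interferon response mRNAs. Among 12 fibrillar and beaded collagens, 6 stood 1.5 times or more above WT and 1 as far below, with a median of 0.59. Of the 10653 genes measured in these cells 9.41% were that much higher and 6.44% lower. Col3a1 stood at 1355 CPM in WT and 2396 CPM in Myh6-R404Q, 1.77 times (1.69 to 1.85), and Col1a2 at 216 and 337 CPM, 1.56 times. Fibroblast markers other than collagens summed to 1046 and 1526 CPM in these cells, with 6 of 9 higher, and their part in the collagen values was not tested. Lamc3, one of those markers, was itself 3.87 times higher (10.4 and 62.2 CPM with cells thinned to 1000 UMIs).

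Interferon response genes were higher for 8 of 24 members and lower for 0, with a median of 0.42. Iigp1, an interferon-induced GTPase, stood at 55.0 and 132 CPM, 2.40 times (1.91 to 3.04). Rsad2 (viperin) was at 6.88 and 26.8 CPM, 3.90 times (2.09 to 8.06), and Isg15, a ubiquitin-like modifier, at 3.13 and 15 CPM, 4.79 times (1.94 to 15.3). Among 12 MHC class I genes 4 were 1.5 times higher, among them H2-T23 at 18.1 and 45.7 CPM, 2.52 times, and 0 were lower. Irf7 and other low members had few counts, and the interval of Irf7 (0.964 to 4.0) included 1, with a log2 ratio of -0.12 after thinning.

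Mesothelial surface genes were at least 1.5 times higher for 3 of 17 members and lower for 0. Their median was 0.34, where that of all genes was 0.042. C3, the central complement component, stood at 1197 and 2586 CPM, 2.16 times (2.06 to 2.27), and Krt19, a simple epithelial keratin, at 1.68 times. Muc16, the surface mucin, went from 2672 CPM in WT to 2151 CPM, 0.805. Rarres2, the chemokine chemerin, was at 452 and 952 CPM, 2.11 times.

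The largest mesothelial ratios were those of Rspo2, a secreted enhancer of Wnt signals, at 6.25 and 66.3 CPM, 10.6 times (5.67 to 22.4; 1.48 and 63.8 CPM with cells thinned to 1000 UMIs), and Mylk, myosin light chain kinase, at 129 CPM in Myh6-R404Q, 10.3 times WT (6.61 to 17.0). The log2 ratio of Mylk was 3.27, and 1.96 with doublets kept. Enpp2, the lysophospholipase autotaxin, was 5.14 times higher and Col6a6 4.29 times. Among genes with at least 50 CPM, 1.2% were at least 2 times higher and 0.748% as much lower. Far2, which reduces fatty acyl-CoA to alcohols, was at 119 and 25.5 CPM, 0.214 (0.166 to 0.274), and Ergic2, a cargo protein between the endoplasmic reticulum and Golgi, at 218 and 83.3 CPM, 0.383. Both lie on chromosome 6, Far2 at chr6:148047259-148182758 on the plus strand and Ergic2 at chr6:148179079-148212374 on the minus strand, and they overlap over 3680 bases, so that reads of the shared stretch could not be told apart unless strand was used. Has1, a hyaluronan synthase, was at 99.4 and 47.7 CPM, 0.480, and Sema3e at 0.442.

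Fibroblasts had a different makeup in the 2 libraries. A cluster led by Dclk1, Col6a3 and Gpm6b held 43.4% of WT and 22.6% of Myh6-R404Q fibroblasts, and a cluster led by Kcnip1, Trhde and Fap 9.32% and 29.2%. The cluster led by Gfpt2, Pi16 and C7 held 30.9% and 33.0%, and that led by Nkain2 and Fbn2 16.4% and 15.3%. Values below were therefore read within clusters as well.

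Basement membrane genes were higher for 7 of 21 members in fibroblasts and lower for 1, with a median of 0.25. Type IV collagen chains differed by pair. Col4a3 stood at 101 and 184 CPM, 1.83 times, and its neighbour Col4a4 at 212 and 416 CPM, 1.96 times (1.84 to 2.09). These genes lie head to head on chromosome 1 with 71 bases between them. Col4a5 was at 133 and 248 CPM, 1.87 times, and Col4a6 at 50.5 and 141 CPM, 2.79 times (2.47 to 3.17), and they lie head to head on chromosome X with 1308 bases between them. Col4a1, a chain of the ubiquitous type IV network, stood at 501 and 445 CPM, 0.888. Col4a6 was between 2.16 and 2.96 times higher in each of the 4 clusters, and the list's median was between 0.25 and 0.30 in each.

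Elastic fibre genes were among the other matrix genes that were higher. Eln stood at 182 CPM in WT and 377 CPM in Myh6-R404Q fibroblasts, 2.07 times (1.93 to 2.22), and was between 1.72 and 2.27 times higher within the 4 clusters. Fbln5, which helps to assemble elastic fibres, was 1.68 times higher, and Col5a3, a minor chain of type V collagen, 2.69 times (2.48 to 2.93). Of 12 measured genes that mark activated fibroblasts 6 were 1.5 times lower and 1 higher, with a median of -0.58. Within the 4 clusters the median ran from -0.76, with 7 of 12 lower and 0 higher, to 0.03, with 3 of 10 lower and 3 higher. Postn (periostin) was at 62.0 and 33.7 CPM, 0.543, and between 0.475 and 0.584 within clusters. Tnc (tenascin C) was at 44.2 and 9.18 CPM, 0.208, with 230 UMIs in WT and 0 in Myh6-R404Q in the Dclk1 cluster, where a count of 0 allows up to 3 UMIs. In the Pi16 cluster it had 82 and 48 UMIs, a ratio of CPM of 0.728 (0.499 to 1.05). The member that was higher is Fap, a surface protease, at 1.78 times in the class and between 1.34 and 1.67 times within clusters.

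C7, a complement component, stood at 702 and 150 CPM in fibroblasts, 0.214 (0.199 to 0.230), and between 0.180 and 0.231 in each cluster. Of 6 measured genes in the list named for the activating arm of the clock 2 were 1.5 times higher and 1 lower, with a median of 0.19. Npas2 was at 52.6 and 155 CPM, 2.95 times (2.61 to 3.34), and Arntl (BMAL1) at 37.8 and 89.6 CPM, 2.37 times. The lower member, Nfil3, is itself a repressor, and was at 11.1 and 5.10 CPM, 0.462. Of 11 genes of the opposing arm and its outputs 3 were 1.5 times lower and 0 higher, namely Per2, Per3 and Tef at 0.569, 0.636 and 0.666. The labels give no hour of collection. Among genes with at least 50 CPM, 0.489% were at least 2 times higher in fibroblasts and 0.979% as much lower. Immediate early genes were lower for 10 of 19 members and higher for 0, among them Egr1 at 104 and 39.5 CPM, 0.380, and Junb at 0.420.

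Blood endothelial cells differed in how many were arterial. The arterial list had 7 of 14 members at least 1.5 times lower and 0 higher, with a median of -0.56, beside 5.70% lower and 4.49% higher among all 10218 genes measured. Gja5 (connexin 40) stood at 33.8 and 15.9 CPM, 0.470, and Sema3g at 49.5 and 18.4 CPM, 0.372. The arterial cluster led by these genes held 228 WT cells, 6.76% of the class, and 73 Myh6-R404Q cells, 3.41%. Within that cluster Gja5 was at 400 and 386 CPM, 0.967 (0.671 to 1.37), and Fbln5 at 666 and 678 CPM. Other members differed inside it: Sox17 was at 0.562 (0.33 to 0.92) and Efnb2 at 1.90 (1.37 to 2.63). In the main endothelial cluster 2 of 12 arterial genes were 1.5 times lower and 0 higher, beside 7.17% and 6.09% of all genes. These were Sema3g at 0.349 (0.21 to 0.55) and Stmn2 at 0.515 (0.37 to 0.71). Fbln5, at 0.649 in the class, was at 1.02 times once clusters were weighted to their WT shares, and Gja5 was at a log2 ratio of -0.19.

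Eln was lower inside each endothelial cluster. It stood at 2148 and 1417 CPM in arterial cells, 0.660 (0.553 to 0.784), at 624 and 450 CPM in the cluster led by Kirrel3 and Vegfc, 0.721 (0.628 to 0.826), and at 62.0 and 40.0 CPM in the main cluster, 0.645. Over the class it was 378 and 179 CPM, 0.475 (0.430 to 0.523). Selp (P-selectin), which catches leukocytes, was at 16.7 and 4.45 CPM, 0.267 (0.139 to 0.480), and Edn1, the vasoconstrictor endothelin, at 20.4 and 8.90 CPM, 0.436.

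Aplnr, the apelin receptor, stood at 37.8 and 82.3 CPM, 2.18 times (1.78 to 2.68), and was also higher within the main cluster (2.22 times) and the Vegfc cluster (1.82 times). Pxdn, a peroxidase that crosslinks type IV collagen, was 2.08 times higher and Plat, tissue plasminogen activator, 1.72 times. Nrp2, a semaphorin and VEGF coreceptor, was at 454 and 679 CPM, 1.49 times. Of endothelial genes with at least 50 CPM, 0.318% were at least 2 times higher and 0.728% as much lower. Genes of lipid uptake were level, with 0 of 12 at 1.5-fold in either direction and Cd36 at 2503 and 2418 CPM. Myom2, a muscle gene, was 2.5 times higher in endothelial cells, where Myh6 stood at 5911 CPM in WT and 7961 CPM in Myh6-R404Q.

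Endocardial cells had lower glucocorticoid response genes, though not alone. Less the median of genes of similar span, this list was below 0 in each of the 8 classes. Those values ran from -0.28 in lymphatic cells to -0.53 in fibroblasts and -0.69 in endocardial cells. In endocardial cells 8 of 14 members were at least 1.5 times lower and 1 higher, with a median of -0.67. Of all 10341 genes measured, 10% were that much lower and 12.3% higher. Fkbp5, a chaperone of the glucocorticoid receptor, stood at 227 and 124 CPM, 0.546 (0.444 to 0.672), Tsc22d3 (GILZ) at 198 and 123 CPM, 0.618, and Zbtb16 (PLZF) at 525 and 336 CPM, 0.640. The member that was higher is Txnip, at 1.94 times. Nrg1, the endocardial ligand that signals to cardiomyocytes through ErbB receptors, was at 3681 and 2368 CPM, 0.643 (0.613 to 0.675), and Bmp6 at 2316 and 1600 CPM, 0.691. Npr3, the natriuretic peptide clearance receptor, was at 2178 and 2303 CPM.

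Of 11 clock repressor and output genes 5 were 1.5 times higher and 0 lower in endocardial cells, and Hlf was at 86.4 and 152 CPM, 1.76 times (1.35 to 2.31). Comp, a matrix glycoprotein of cartilage and tendon, was 4.43 times higher (2.56 to 8.2), Apoe 3.05 times and Hes1, a Notch target, 2.78 times. Of endocardial genes with at least 50 CPM, 0.981% were at least 2 times higher and 1.12% as much lower. Tmtc2 stood at 2882 and 1104 CPM, 0.383 (0.359 to 0.408), and Sytl5 at 153 and 37.5 CPM, 0.245.

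In lymphatic endothelial cells, fewer in Myh6-R404Q, identity genes were 1.5-fold apart about as often as all genes. Prox1, the factor that specifies the lineage, stood at 922 and 1282 CPM, 1.39 times (1.27 to 1.52), and Ccl21a, the chemokine that guides dendritic cells into lymphatics, at 748 and 1202 CPM, 1.61 times. In the other 7 classes, Ccl21a was at least 1.5 times lower. However, it reached the share of its top level required of named genes in 1 class alone. The part of free RNA in these lower values was not tested. Of 19 identity genes 3 were 1.5 times higher and 3 lower, where 13.2% and 11.6% of the 10818 genes measured were. Clca3a1, an adhesion protein of lymphatics, was at 248 and 108 CPM, 0.435. Cmah, the hydroxylase of sialic acid, stood at 727 and 80.2 CPM, 0.110 (0.0825 to 0.145), and the secreted protease Adamts5 at 190 and 62.7 CPM, 0.331. Of lymphatic genes with at least 50 CPM, 0.863% were at least 2 times higher and 1.6% as much lower. Bcl6b was 3.49 times higher (2.34 to 5.29) and the cyclin Ccnd2 2.52 times.

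Pericytes had 4 of 21 genes of their receptors and signals at least 1.5 times higher and 0 lower, with 12.4% and 10.3% of all 10467 genes measured. P2ry14, a receptor for UDP-sugars, stood at 144 and 264 CPM, 1.83 times (1.48 to 2.27), and Colec11 at 203 and 351 CPM, 1.73 times. Pdgfrb, the receptor that recruits pericytes, was at 896 and 1233 CPM, 1.38 times. TGF-beta response genes were lower for 4 of 18 members and higher for 1, with a median of -0.35, and Ccn2, a matricellular target, was at 68.6 and 32.7 CPM, 0.476 (0.294 to 0.751). Of pericyte genes with at least 50 CPM, 0.629% were at least 2 times higher and 1.19% as much lower. Fn1 (fibronectin) was 2.34 times higher, and Zbtb16 was at 465 and 194 CPM, 0.416. Nppa and Myom2, 4.14 and 2.96 times higher, are cardiomyocyte genes (Nppa had a log2 ratio of 1.97, and 1.12 with doublets kept), and Myh6 stood at 4080 and 6472 CPM in the same cells.

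Macrophages had lower cytokine mRNAs and higher MHC class II mRNAs. Of 15 cytokine and chemokine genes 8 were at least 1.5 times lower and 2 higher, with a median of -0.97, and 10.4% of all 10484 genes measured were that much lower and 10% higher. Ccl6 stood at 253 and 81.1 CPM, 0.320 (0.263 to 0.388), Ccl2, which recruits monocytes, at 35.6 and 17.2 CPM, 0.484, and Il1b at 28.6 and 14.1 CPM, 0.494. The 2 that were higher are Cxcl16 and Ccl24, at 1.56 and 1.68 times. Of 10 MHC class II genes 4 were higher and 0 lower: H2-Ab1 at 47.6 and 99.0 CPM, 2.08 times (1.61 to 2.69), Ciita, their master regulator, at 1.74 times, H2-Aa at 1.62 times and Cd74 at 1.59 times. Of macrophage genes with at least 50 CPM, 1.01% were at least 2 times higher and 1.29% as much lower. Cx3cr1, the fractalkine receptor, was 2.61 times higher (1.98 to 3.48). F13a1, factor XIII of tissue macrophages, stood at 6050 and 3558 CPM, 0.588, and Lyve1 at 178 and 103 CPM, 0.576. Of the 12 macrophage markers, F13a1 among them, 9 were higher in Myh6-R404Q macrophages, and the 12 summed to 11270 and 8660 CPM. Cd38, an NAD-consuming ectoenzyme, was at 160 and 30.1 CPM, 0.188 (0.136 to 0.254), and 134 and 42.1 CPM with doublets kept.

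Over all cells, 5.39% of 10967 genes were at least 1.5 times higher and 2.53% lower, and the named genes included those of classes whose shares differed. A larger share of a cell type and more RNA per cell of it cannot be told apart there. Of genes with at least 50 CPM, 1.11% were at least 2 times higher and 0.261% as much lower. Rarres2 and Msln, mesothelial genes, were 4.05 and 3.70 times higher, where mesothelial cells were 2.41 times as frequent. Acta2 and Myh11 of smooth muscle were at 0.296 and 0.303, where that class was at 0.345. C7 was at 0.202 and Hsph1 at 0.369.

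The Prkag2-p.R299Q library, which shares the WT library as its reference, was set beside these values. Mesothelial cells were 8.29% of its 6780 cells, endocardial cells 3.24% and lymphatic cells 4.04%. Smooth muscle cells were 0.266% and Schwann cells 0.133% of them, against 1.35% and 0.607% in WT and 0.465% and 0.171% in Myh6-R404Q. Serpina3n stood at 18.8 CPM in fibroblasts and 19.0 CPM in lymphatic cells, against 61.6 and 124 CPM in WT. In fibroblasts Mt1 was at 43.0 CPM and Egr1 at 32.3 CPM, against 122 and 104 CPM in WT, and Cdkn1a in endothelial cells was at 17.2 CPM against 55.2 CPM. For these genes and classes the WT library was the highest of the 3. Ucp3 in cardiomyocytes stood at 27.1 CPM there, Txnip at 90.8 CPM and Pak7 at 18.1 CPM, against 68.6, 325 and 60.3 CPM in Myh6-R404Q. Pdk4 in cardiomyocytes was at 16.5 CPM, below the 37.5 CPM of WT. In fibroblasts C7 stood at 679 CPM, Eln at 160 CPM and Npas2 at 24.2 CPM, against 702, 182 and 52.6 CPM in WT. In endothelial cells Eln was at 197 CPM, against 378 CPM in WT and 179 CPM in Myh6-R404Q. Endothelial Aplnr (81.8 CPM) and endocardial Apoe (394 CPM) were also near Myh6-R404Q (82.3 and 402 CPM). Fibroblast Col4a6 (61.6 CPM) and mesothelial Enpp2 (22.4 CPM) were nearer to WT (50.5 and 24.4 CPM). Hsph1 was at 22.5 CPM in cardiomyocytes and 78.7 CPM in macrophages, between the WT and Myh6-R404Q values in both. Rspo2 in mesothelial cells was at 66.6 CPM, the level of Myh6-R404Q. Cycling cells were 0.221% of the Prkag2-p.R299Q cells, against 0.0270% in WT and 0.456% in Myh6-R404Q. Its arterial cluster held 36 of 1032 endothelial cells, against 228 of 3375 in WT and 73 of 2143 in Myh6-R404Q. The Dclk1 cluster held 248 of its 2224 fibroblasts, against 1874 of 4323 in WT and 650 of 2880 in Myh6-R404Q. The Kcnip1 cluster held 481 of them, against 403 and 841. No test of these differences is possible with 1 library per genotype.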

How the data were processed

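The authors deposited raw UMI counts of genes in cell barcodes, from 10x 3′ libraries, made with Cell Ranger 7.0.1 on mm10 per the submitters' processing notes. Use of introns and of strand is not given in the sources used here. Barcodes needed 500 UMIs, 300 genes and at most 20% mitochondrial counts. Doublets were called with Scrublet in scanpy 1.11.5 (17.8% of WT and 16.8% of Myh6-R404Q barcodes, above the 14.4% and 10.1% expected at 0.8% per 1000) and removed. The 3 libraries were clustered together (2000 genes, 30 components, Leiden, resolution 0.8). A cluster took the class with the highest marker score; a rule added after seeing the data left clusters unnamed when 2 classes scored within 0.5, which held 28 WT and 14 Myh6-R404Q cells. Members, lists and markers were chosen with earlier results of these data known. Ratios are of CPM of the class total, medians of log2 ratios with a pseudocount of 1 CPM. Named genes are, per class, up to 10 each way by log2 ratio, with 50 CPM in either library, at least 2-fold, an interval beyond 1.5-fold and 0.2 of the CPM of the top class (not asked over all cells), up to 15 each way across classes, and each list's 4 most abundant members and those at 1.5-fold with that share. Mitochondrial, ribosomal protein, hemoglobin, immunoglobulin, predicted, Xist, Tsix and Y chromosome genes were left out, apart from Xist and Uty as a check of sex. Chrm2, Cmss1, Col6a3, Fbn2, Hspd1, Adam22 and Sox17 fall outside this rule. So do the cycling genes Ccnb1, Hmmr, Knl1, Mki67 and Top2a. All of these were chosen after their values were seen. Some genes that meet the rule are not reported here. Gene positions come from GENCODE M21 by gene ID, 32158 of 32285 matched. The interval and ratio code was tested on simulated counts. Intervals cover counting error only.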

Additional observations from a re-analysis of the deposited data

Results flagged for a closer look

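In 5 genes the ratio lay beyond 1.5-fold in opposite directions in 2 lineages, each where the higher library reached 50 CPM and 0.2 of the CPM of the top class, with an interval beyond 1.5-fold. The differences between lineages were not tested. Eln was at 2.07 times in fibroblasts and 0.475 times in endothelial cells. Grm7, a metabotropic glutamate receptor, was at 2.60 times in fibroblasts (37.2 and 96.6 CPM) and 0.529 times in pericytes (887 and 470 CPM). Sorcs1, a sorting receptor, was at 2.41 times in mesothelial cells (25.6 and 61.7 CPM) and 0.395 times in pericytes (239 and 94.4 CPM). Adam22 was at 1.93 times in macrophages (60.9 and 117 CPM) and 0.582 times in cardiomyocytes (193 and 112 CPM). Tcap was at 1.95 times in cardiomyocytes and 0.497 times in lymphatic cells (264 and 131 CPM), where its counts stand beside a cardiomyocyte marker sum of 13130 CPM in WT and 10270 CPM in Myh6-R404Q.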

How the results depend on the processing

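No paired analysis was possible because each genotype has 1 library. Of 40 alternative values of the 8 class shares 37 stayed within the interval of the main value. With at least 1000 UMIs per barcode the log2 ratio of shares was -0.37 for cardiomyocytes (main value -0.18), 1.14 for mesothelial cells (1.27) and 0.0014 for endothelial cells (-0.16). Of 237 alternative list medians 226 stayed within bounds. In cardiomyocytes, thinning to 1000 UMIs gave 0.68 for fatty acid oxidation (0.47), 0.515 for the respiratory chain (0.37), 0.0516 for mitochondrially encoded genes (-0.12) and 0.135 for the sarcomere list (0.04). The sarcomere median was -0.0236 without doublet removal, -0.0110 with doublets removed at the expected rate and 0.12 with no member floor. Basement membrane in fibroblasts was 0.37 with a floor of 50 CPM (0.25). Subtracting the median of genes of the same span, an alternative added after seeing the data, gave 0.22 for the respiratory chain, -0.39 for mitochondrially encoded genes and -0.0579 for the sarcomere list. Of 304 genes in their classes 293 kept their direction under every alternative tried. The log2 ratio turned for Atp2a2 (-0.026 without doublet removal, -0.018 at the expected rate, against 0.033), Myh6 (0.13 thinned, 0.18 as a mean over cells, against -0.05) and Xirp2 (0.19 thinned, 0.0580 as a mean over cells, against -0.35) in cardiomyocytes and Fbln5 in endothelial cells (0.0218 with clusters weighted to WT, against -0.61). Irf7 in mesothelial cells was at -0.12 thinned, against 0.82. Efnb2 in endothelial cells, Hsp90ab1, mt-Atp6 and mt-Co1 in cardiomyocytes and Tgfbr3 in pericytes, with main values between -0.0251 and 0.0115, turned as well, as did 1 gene not reported here. Hsph1 in pericytes was at -2.38 thinned (-1.74). A pseudocount of 5 CPM gave -1.23 for Hspa1a (-1.90) and -1.15 for Hspa1b (-1.76) in endothelial cells and 1.30 for Isg15 in mesothelial cells (1.95). The cause was not tested. Depth limits low genes: intervals of genes under 10 CPM in the smaller classes span several-fold.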
